A study of Mus musculus with 12 samples.

Results

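RNA levels of 10 genes of the BCL2 family were examined in leukemia stem and progenitor cells of a mouse model of chronic myeloid leukemia (CML). The members were chosen by name, with no threshold on their values. They are the anti-apoptotic genes Bcl2, Bcl2l1 and Mcl1, the pore-forming genes Bax and Bak1, and the BH3-only genes Bcl2l11, Bid, Bbc3, Pmaip1 and Bmf. All 10 were among the 46103 genes listed, and 8 of them reached 1 RPKM in at least 3 libraries, as did 10072 genes in all. RPKM stands for reads scaled to transcript length in kilobases and to the reads of the library, so levels of different genes can be set side by side. Bbc3 and Bmf stayed below this minimum, and are given by their levels and by a fit without the minimum.

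Each of the 12 libraries was made from 100 sorted BCR-ABL1+ LSK cells, that is, lineage-negative cells with Sca1 and c-Kit on their surface, taken from bone marrow and spleen. DP cells carried both CD27 and G0M, a fluorescent reporter of the resting G0 phase, and SP cells carried CD27 without G0M. Both came from vehicle-treated C57BL/6 mice, and their counterparts after daily oral gavage of imatinib, which blocks the kinase activity of BCR-ABL1, are called IMDP and IMSP cells, with 3 libraries in each of the 4 groups. In all groups the donor marrow came from 5FU-treated mice in which Vav1-Cre switches on G0M at the Rosa26 locus throughout blood formation, BCR-ABL1 was introduced with a retrovirus, and the recipients were lethally irradiated wild-type mice. The retrovirus drives BCR-ABL1 in place of the human translocation, and the labels do not say whether the 3 libraries of a group came from separate mice, so p-values measure only the spread between these libraries.

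Proteins of the BCL2 family decide whether the outer membrane of mitochondria is kept intact. BAX and BAK1 can form pores in this membrane that release cytochrome c, the anti-apoptotic guardians hold BAX and BAK1 in check, and the BH3-only proteins bind the guardians or the pore formers when a cell is stressed or loses growth factor signals. In CML cells, BCR-ABL1 signaling through STAT5 is known to raise guardians, and its inhibition is known to raise BIM, the product of Bcl2l11.

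The 250 bases before the start site are printed for Bcl2l11, Bax and Mcl1. They are 1 example each of a BH3-only gene, a pore-forming gene and a guardian. On the deposited RPKM of all 12 libraries without a block, Bax was called between groups, and Bcl2l11 and Mcl1 were not. Other scalings changed these calls, as given below. The sequences are those of RefSeq in GRCm38.p6, with matches to any searched motif in capitals, and GENCODE M21 lists no exon within these stretches. The Bcl2l11 stretch lies at chr2:128125788-128126037 on the + strand, the Bax stretch at chr7:45466899-45467148 on the - strand, and the Mcl1 stretch at chr3:95658471-95658720 on the + strand.
Bcl2l11: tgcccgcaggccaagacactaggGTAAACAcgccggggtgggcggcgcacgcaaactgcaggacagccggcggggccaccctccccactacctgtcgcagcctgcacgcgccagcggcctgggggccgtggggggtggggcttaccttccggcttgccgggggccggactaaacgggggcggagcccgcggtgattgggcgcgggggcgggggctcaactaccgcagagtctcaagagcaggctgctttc
Bax: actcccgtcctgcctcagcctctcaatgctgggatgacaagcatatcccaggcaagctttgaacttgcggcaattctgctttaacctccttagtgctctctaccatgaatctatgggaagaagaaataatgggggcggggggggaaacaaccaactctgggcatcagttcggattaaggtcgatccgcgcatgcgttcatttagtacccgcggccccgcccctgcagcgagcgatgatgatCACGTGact
Mcl1: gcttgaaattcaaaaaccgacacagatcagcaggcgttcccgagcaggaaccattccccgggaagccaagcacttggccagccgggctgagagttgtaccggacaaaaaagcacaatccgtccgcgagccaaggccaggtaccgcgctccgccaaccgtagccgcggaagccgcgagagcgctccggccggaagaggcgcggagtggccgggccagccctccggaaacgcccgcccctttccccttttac

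The table held 9 of the 10 members, in 16 windows that run from 250 bases before to 50 bases after a start site, among 32851 windows in all. The motifs searched on both strands were TTCNNNGAA (STAT), GTAAACA (FOXO), TTTCGCGC and TTTGGCGC (E2F) and CACGTG (the MYC-type E-box, which reads the same on both strands). The Bcl2l11 window held GTAAACA at -227 from the start site, a motif found in 3.65% of all windows. The Bax window held CACGTG at -9 and at 35, a motif found in 7.15% of all windows. The Mcl1 window held none of the motifs, nor did the window of Bak1. Among windows not printed, 1 of Bcl2l1 held TTTCGCGC at -145, and of 2 that overlap at Bbc3 1 held GTAAACA at -167 and 1 CACGTG at -64. TTCNNNGAA was in 8.3%, TTTCGCGC in 0.323% and TTTGGCGC in 0.514% of all windows. A match is a description of letters and not of binding. The stretch before the Bak1 start is not printed, since annotated exons of Bak1 and of Ggnbp1 overlap it.

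The libraries held 11.4 to 20.6 M reads in the total behind the RPKM, of which 25.9% to 37.1% fell on listed features. This share was 25.9% to 31.1% in IMDP and 32.6% to 37.1% in IMSP libraries, and the median log2 fold change of all tested genes was -0.25 in IMDP against IMSP, -0.17 in IMDP against DP, -0.13 for G0M+ against G0M- cells averaged over treatments and -0.02 in DP against SP. Mki67, a proliferation gene, was lower in the G0M+ cells, with means of 14.7 RPKM (DP) and 54.2 RPKM (SP) under vehicle and of 8.16 RPKM (IMDP) and 61.1 RPKM (IMSP) under imatinib. Kit, Ly6a and Cd27, which encode surface proteins used in the sort, were above 0 in every library. Ly6a (Sca1) had means of 19.0 RPKM in IMDP and 6.63 RPKM in IMSP libraries (limma, adjusted p = 0.017). In DP and SP libraries its means were 11.7 and 4.55 RPKM (adjusted p = 0.171). Kit and Cd27 were called in no pairwise contrast. Cdkn1b encodes p27, which G0M carries in mutant form. Its means were 8.02 RPKM in both DP and SP, 6.66 RPKM in IMDP and 7.55 RPKM in IMSP libraries. Of genes for proteins that the lineage gate removes, Itgam (CD11b) was at 0.444 to 3.08 RPKM, Cd5 at 0.0627 to 0.574 and Ly6g at 0 to 0.365 over the libraries. The 9 mast cell and basophil markers summed to 76.3 to 329 RPKM in DP and 14.9 to 194 in IMDP, against 10.5 to 23.0 in SP and 7.92 to 24.4 in IMSP libraries, and Cma1 was at 0 in all libraries of SP and IMSP. The 6 macrophage markers summed to 3.34 to 13.2 RPKM in DP against 2.06 to 4.57 in SP libraries, and to 10.2 to 13.7 in IMDP against 3.05 to 8.89 in IMSP libraries, with 3 to 4 of them at 0 in SP and IMSP libraries. The 5 erythroid markers summed to 194 to 245 RPKM in DP against 49.3 to 144 in SP libraries, without overlap, and to 56.8 to 220 in IMDP against 9.43 to 71.6 in IMSP libraries. Fewer cells of a type and less RNA per cell cannot be told apart in such bulk libraries. The part of these markers in the results below was not tested.

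**Figure D1:**
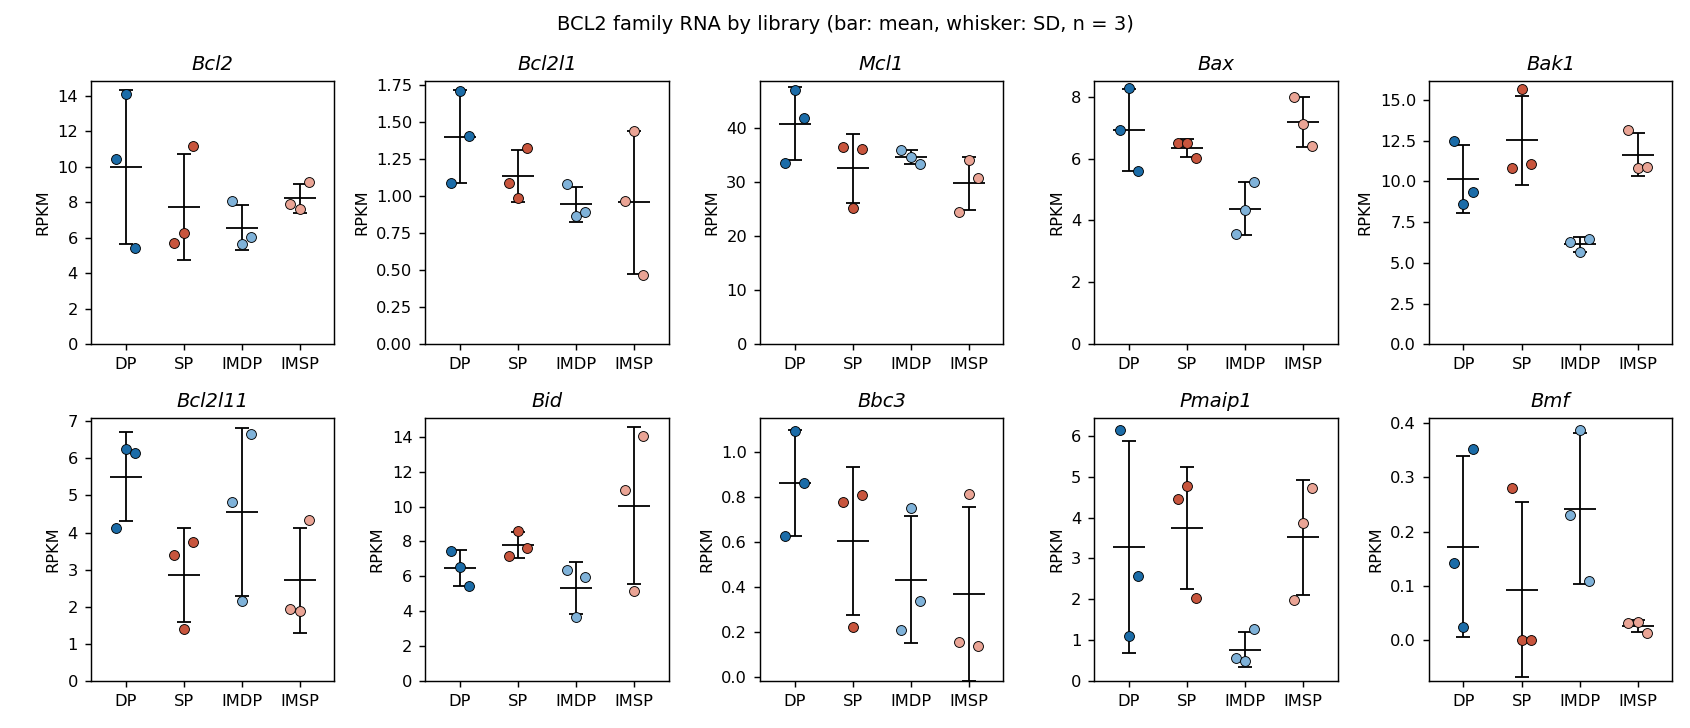
RPKM (y axis, linear, a separate scale for each gene) of the 10 members in each library of DP, SP, IMDP and IMSP cells, with the group mean (bar) and SD (whisker, n = 3). The IMDP libraries lie below all IMSP libraries for Bax, Bak1 and Pmaip1, and Mcl1 is the highest member in every group.

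The anti-apoptotic guardians were led by Mcl1 in every library. Mcl1 (GRCm38, GENCODE M21, chr3:95658788-95663176, + strand) encodes a short-lived guardian that blood stem cells need for survival. Its level was 33.5, 47.0 and 41.8 RPKM in DP libraries 1 to 3, and 36.4, 25.2 and 36.0 RPKM in SP libraries. Under imatinib it was 35.9, 34.6 and 33.3 RPKM in IMDP and 24.5, 34.1 and 30.8 RPKM in IMSP libraries. The mean over the 12 libraries, 34.4 RPKM, was above that of 95.6% of the genes tested. DP and SP libraries overlapped, and so did IMDP and IMSP libraries. On the log2 scale Mcl1 differed by 0.33 (95% interval -0.07 to 0.73) between DP and SP cells and by 0.23 (-0.17 to 0.63) between IMDP and IMSP cells, and neither passed the limma test over all genes tested (adjusted p = 0.467 and 0.369). Averaged over treatments, the difference of G0M+ from G0M- cells was 0.28 (SE 0.13) with an adjusted p of 0.122. This p was 0.0438 after all libraries had been brought to a common median, 0.0363 with the reads on listed features as the denominator and 0.0229 with neighbouring libraries as a block.

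Bcl2 (chr1:106538178-106714274, - strand) encodes the founding guardian, the target of venetoclax. It reached 10.4, 14.1 and 5.42 RPKM in DP, and 5.72, 6.29 and 11.1 RPKM in SP libraries. In IMDP libraries it was 8.05, 5.65 and 6.03 RPKM, and in IMSP libraries 7.90, 7.64 and 9.13 RPKM. The vehicle groups spread widely, with DP library 3 below all SP libraries and DP library 2 above them. The log2 fold change averaged over treatments was -0.00 (95% interval -0.50 to 0.50) for G0M+ against G0M- cells, with an adjusted p of 0.996. The IMDP mean of 6.58 RPKM compared with 8.22 RPKM in IMSP libraries, a log2 fold change of -0.33 (-1.04 to 0.38, adjusted p = 0.470).

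Bcl2l1 (chr2:152780668-152831728, - strand) encodes BCL-XL, a guardian known for its role in red cell precursors and platelets. It was the lowest guardian, at 0.466 to 1.71 RPKM in all libraries, or 45 to 192 reads, and its mean was above that of 7.75% of the genes tested. In DP libraries it was 1.09, 1.71 and 1.41 RPKM and in IMDP libraries 1.08, 0.863 and 0.890 RPKM. The IMDP values thus lay just below those of DP cells, with a log2 fold change of -0.51 (95% interval -1.27 to 0.25, adjusted p = 0.435). SP libraries held 1.09, 0.987 and 1.33 RPKM and IMSP libraries 0.969, 1.44 and 0.466 RPKM. Neither population difference passed the test, with adjusted p of 0.748 in vehicle-treated and 0.865 in imatinib-treated mice.

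Mcl1 made up most of the summed RPKM of the guardians, with 78.4% ± 6.56 (SD, n = 3) in DP and 78.7% ± 5.08 in SP libraries. Under imatinib this share was 82.2% ± 2.27 for IMDP and 76.2% ± 2.80 for IMSP libraries. The share of Bcl2 was 18.9% ± 6.75, 18.5% ± 4.92, 15.5% ± 2.12 and 21.3% ± 3.21 for DP, SP, IMDP and IMSP libraries, and that of Bcl2l1 was 2.68%, 2.76%, 2.24% and 2.46%. The Mcl1 share of the IMDP libraries, 79.7% to 84.2%, did not overlap that of the IMSP libraries, 73.4% to 79.0%. With 3 libraries against 3, an exact permutation test cannot reach the threshold, and none was run on these shares.

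The pore-forming genes were lowest in IMDP cells. Bak1 (chr17:27019810-27029009, - strand), whose product sits in the mitochondrial outer membrane, reached 12.5, 8.59 and 9.35 RPKM in DP libraries and 10.8, 15.7 and 11.1 RPKM in SP libraries. Its level was 6.26, 5.64 and 6.49 RPKM in IMDP and 13.2, 10.9 and 10.9 RPKM in IMSP libraries. All 3 IMDP libraries lay below every library of the other 3 groups. In IMDP against IMSP cells Bak1 was 1.88-fold lower (log2 fold change -0.91, SE 0.18, adjusted p = 0.00592), and it was 1.52-fold lower in G0M+ cells averaged over treatments (-0.61, SE 0.13, adjusted p = 0.00709). Both calls held in each of the 12 fits that left out 1 library, with a highest adjusted p of 0.0339 and 0.0231. Measured from the median change over all genes, the differences were -0.66 and -0.47. In DP against SP cells the log2 fold change was -0.30 (95% interval -0.70 to 0.10, adjusted p = 0.510). Between IMDP and DP cells it was -0.70 (-1.10 to -0.30, adjusted p = 0.0900), and in IMSP against SP cells -0.09 (-0.49 to 0.31, adjusted p = 0.949).

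Bax (chr7:45461697-45466898, - strand) encodes a pore former that waits in the cytosol until it is activated, and is a target gene of p53. In DP libraries it was at 6.92, 8.27 and 5.59 RPKM, and in SP libraries at 6.51, 6.52 and 6.01 RPKM. IMDP libraries held 3.55, 4.35 and 5.25 RPKM, and IMSP libraries 8.01, 7.12 and 6.40 RPKM. The IMDP libraries again lay below all others, while DP and SP libraries overlapped. Bax was 1.64-fold lower in IMDP than in IMSP cells (log2 fold change -0.71, SE 0.18, adjusted p = 0.0156). The call was lost without IMSP library 1 (adjusted p = 0.0734), with all libraries brought to a common median (-0.44, adjusted p = 0.128) and with the reads on listed features as the denominator (-0.39, adjusted p = 0.161). In DP against SP cells the log2 fold change was 0.11 (95% interval -0.28 to 0.50, adjusted p = 0.808). The difference between the population effects under imatinib and vehicle was -0.82 (SE 0.25), with an adjusted p of 0.534 for this interaction. In IMDP against DP cells Bax differed by -0.65 (-1.04 to -0.26, adjusted p = 0.0996).

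Bax and Bak1 together reached 17.1 ± 2.25 RPKM in DP and 18.9 ± 2.87 RPKM in SP libraries (SD, n = 3). Under imatinib their sum was 10.5 ± 1.07 RPKM for IMDP and 18.8 ± 2.09 RPKM for IMSP libraries. Its ratio to the summed RPKM of the guardians does not depend on how a library is scaled, and was chosen after the values had been seen, so no test is given. The ratio was 0.431, 0.269 and 0.307 in DP and 0.401, 0.684 and 0.352 in SP libraries. In IMDP libraries it was 0.218, 0.243 and 0.292, and in IMSP libraries 0.636, 0.416 and 0.428. IMDP and IMSP libraries did not overlap, with means of 0.251 and 0.493, and DP and SP libraries did.

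**Figure D2:**
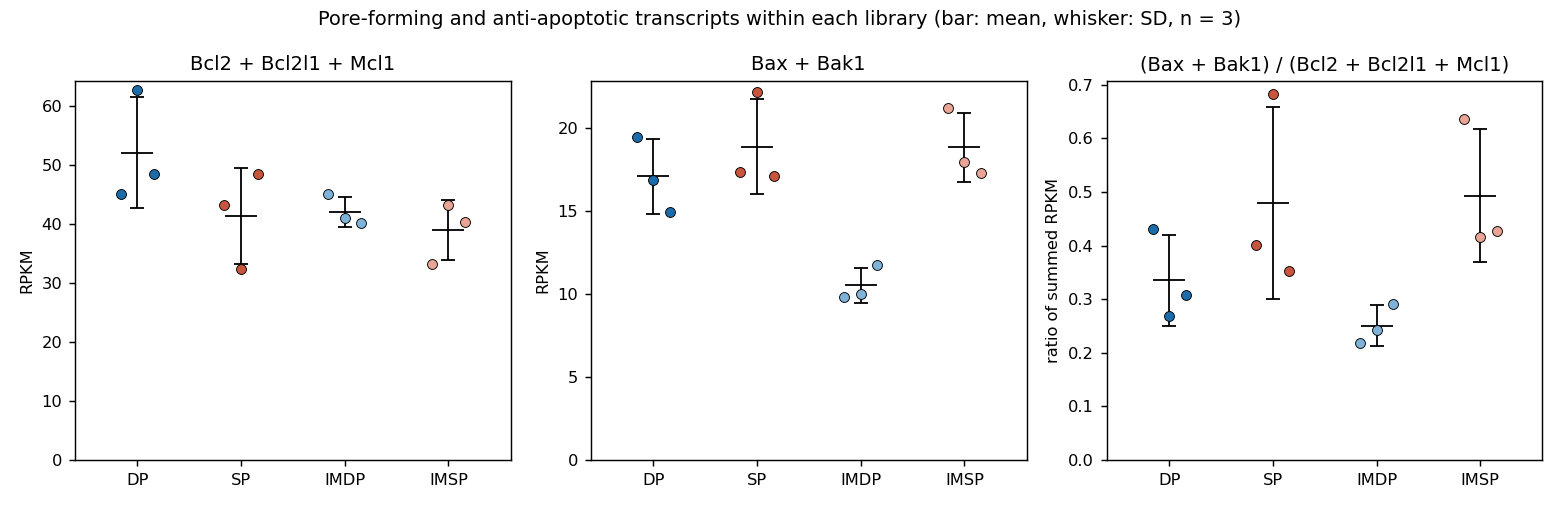
Summed RPKM of the guardians Bcl2, Bcl2l1 and Mcl1 (left), of the pore formers Bax and Bak1 (middle) and the ratio of the pore formers to the guardians (right) in each library, with group mean (bar) and SD (whisker, n = 3). The ratio lies between 0.218 and 0.292 in IMDP and between 0.416 and 0.636 in IMSP libraries.

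Among the BH3-only genes, Pmaip1 was lower in IMDP than in IMSP cells, while Bcl2l11 and Bid did not pass the test on the deposited RPKM of all 12 libraries without a block. Pmaip1 encodes NOXA, which binds MCL1 and is a target gene of p53. Its level was 6.16, 1.11 and 2.57 RPKM in DP libraries, and 4.45, 4.78 and 2.04 RPKM in SP libraries. It was 0.554, 0.481 and 1.27 RPKM in IMDP libraries, or 19 to 57 reads, against 1.97, 3.88 and 4.72 RPKM in IMSP libraries. IMDP libraries did not overlap IMSP libraries, but DP library 2 lay within the IMDP range. Pmaip1 was 4.24-fold lower in IMDP than in IMSP cells (log2 fold change -2.09, SE 0.57, adjusted p = 0.0208). The call was lost without IMDP library 2 (adjusted p = 0.0826) or IMSP library 3 (0.0643), with median scaling (-1.81, 0.0512), with the reads on listed features as the denominator (-1.79, 0.0568) and with limma-voom on the reads (-2.12, 0.0790). The log2 fold change was -2.47 to -1.84 over the fits that left out 1 library. Between IMDP and DP cells Pmaip1 differed by -1.76 (95% interval -2.99 to -0.52, adjusted p = 0.132). Averaged over treatments, Pmaip1 was lower in G0M+ cells by a log2 value of -1.25 (SE 0.40, adjusted p = 0.0389), a call kept in 4 of 12 fits that left out 1 library and lost with median scaling (-1.09, 0.0679), with the reads on listed features as the denominator (-1.07, 0.0750) and with limma-voom (-1.30, 0.0674).

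Bcl2l11 (chr2:128126038-128162547, + strand) encodes BIM, a BH3-only protein that can bind all guardians. It was at 4.12, 6.26 and 6.14 RPKM in DP and 3.41, 1.41 and 3.76 RPKM in SP libraries. Under imatinib it was at 4.83, 2.15 and 6.67 RPKM in IMDP and 1.93, 1.88 and 4.35 RPKM in IMSP libraries. All DP libraries lay above all SP libraries, while IMDP and IMSP libraries overlapped. Bcl2l11 differed by 1.01 on the log2 scale between DP and SP cells (95% interval 0.01 to 2.02, adjusted p = 0.377) and by 0.69 between IMDP and IMSP cells (-0.31 to 1.70, adjusted p = 0.282). With neighbouring libraries as a block these adjusted p were 0.0239 and 0.0297. Averaged over treatments the log2 fold change of Bcl2l11 for G0M+ against G0M- cells was 0.85 (SE 0.33), with an adjusted p of 0.0706 without a block, 0.0479 with the reads on listed features as the denominator, 0.0259 with the replicate block and 0.00228 with the block of neighbouring libraries. The imatinib contrasts were -0.39 in IMDP against DP (-1.39 to 0.62, adjusted p = 0.673) and -0.06 in IMSP against SP cells (-1.07 to 0.94, adjusted p = 0.985).

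Bid (chr6:120891930-120916853, - strand) encodes a BH3-only protein that caspase-8 cleaves, which links death receptors to mitochondria. Its level was 7.46, 6.52 and 5.43 RPKM in DP and 7.18, 8.60 and 7.61 RPKM in SP libraries. In IMDP libraries it was 6.36, 3.65 and 5.97 RPKM and in IMSP libraries 10.9, 5.16 and 14.0 RPKM. IMSP library 2 was the lowest of its group and fell within the IMDP range. Bid differed by -0.83 on the log2 scale in IMDP against IMSP cells (SE 0.32, adjusted p = 0.0747), by -1.24 without IMSP library 2 (adjusted p = 0.00840) and with an adjusted p of 0.00221 under the block of neighbouring libraries. Averaged over treatments the log2 fold change was -0.55 (SE 0.22, adjusted p = 0.0872), with an adjusted p of 0.00266 under that block. The library kit does not mark strand, and exons of Bid and Bcl2l13 share up to 628 bases on opposite strands, so reads there cannot be assigned to one of them. The same holds for up to 871 bases of Bak1 and Ggnbp1, a gene at no more than 1.24 RPKM. Exons of Bcl2 share up to 616 bases with D630008O14Rik on the opposite strand. Those of Bax share up to 192 bases with Gm45808 on the same strand. Neither D630008O14Rik nor Gm45808 was among the genes listed, so their levels are not known here.

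Bbc3 and Bmf were near the limit of detection. Bbc3 (chr7:16308393-16318205, + strand) encodes PUMA, another p53 target, and held 7 to 63 reads in a library. It was at 0.626, 1.1 and 0.865 RPKM in DP, 0.781, 0.225 and 0.809 in SP, 0.211, 0.750 and 0.337 in IMDP and 0.155, 0.814 and 0.141 in IMSP libraries. These groups overlapped, and without the low-value minimum the log2 fold change averaged over treatments was 0.45 (95% interval -0.50 to 1.41, adjusted p = 0.526). Bmf (chr2:118528757-118549687, - strand) encodes a BH3-only protein tied to the cytoskeleton, and held 0 to 31 reads in a library. It was at 0.142, 0.0237 and 0.352 RPKM in DP and at 0.230, 0.387 and 0.110 RPKM in IMDP libraries, against 0.0317, 0.0327 and 0.0138 RPKM in IMSP libraries. SP libraries held 0.280 RPKM in the first and no read in the other 2, which allows up to 0.0329 and 0.0414 RPKM at a limit of 3 reads. The fitted log2 fold change of Bmf in IMDP against IMSP cells was 1.36 (0.10 to 2.63, adjusted p = 0.151), and it depends on the pseudocount of 0.1. Intervals and read limits cover counting error or the spread between libraries, and PCR copies were not marked.

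Counted over the members, 3 of 8 were called in IMDP against IMSP cells, all of them lower (Bak1, Bax and Pmaip1), where 25.6% of all tested genes were called and 23.3% were called lower. IMDP libraries lay wholly below IMSP libraries for 3 of the 8, and for 32.8% of all genes. In total 2342 genes were called lower and 239 higher in this contrast, a split that median scaling turned to 940 and 647. Members called under median scaling numbered 1 (Bak1). With 1 library left out, 2 members were called without IMDP library 2, IMSP library 1 or IMSP library 3, 4 without IMSP library 2, and 3 without any other library. The library-number block called 5 members, where it called 44.1% of all genes. The median log2 fold change of the 8 members was -0.52, beside -0.25 over all genes.

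In DP against SP cells 0 of 8 members were called by limma, with 1 at an unadjusted p under 0.05, as had 13.2% of all genes, and 0 by limma-voom, and 2.26% of all genes were called. With the library-number block, 1 member (Bcl2l11) and 9.73% of all genes were called. The members' median log2 fold change was 0.19, beside -0.02 over all genes. Averaged over treatments, 2 of 8 members were called (Bak1 and Pmaip1), both lower, where 26.3% of all genes were called and 21% were called lower. Under the library-number block 5 members were called there, and 46.9% of all genes. Median scaling also called 2 there, Bak1 and Mcl1. The genes called lower and higher over all genes were 2112 and 536, and 1248 and 1131 with median scaling.

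The imatinib contrasts called no member. In IMDP against DP cells 3 of 8 members had an unadjusted p under 0.05 (Bak1, Bax and Pmaip1), as had 20.5% of all genes, limma-voom called 0, and 0.367% of all genes were called. IMDP libraries lay wholly below DP libraries for Bak1, Bax and Bcl2l1, and for 19% of all genes. In IMSP against SP cells 0 members and 8.39% of all genes had an unadjusted p under 0.05, limma-voom called 0, and 0% of all genes were called. Averaged over populations 2 members and 18% of all genes had an unadjusted p under 0.05, limma-voom called 0, and 0.854% of all genes were called. For the interaction, 2 members (Bak1 and Bax) and 9.3% of all genes had an unadjusted p under 0.05, limma-voom called 0 and 0% of all genes were called. IMDP libraries enter both IMDP contrasts, which are therefore not independent. The imatinib libraries carry the library numbers 1 to 6 and the vehicle libraries 7 to 12, so treatment and library number cannot be told apart.

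**Figure D3:**
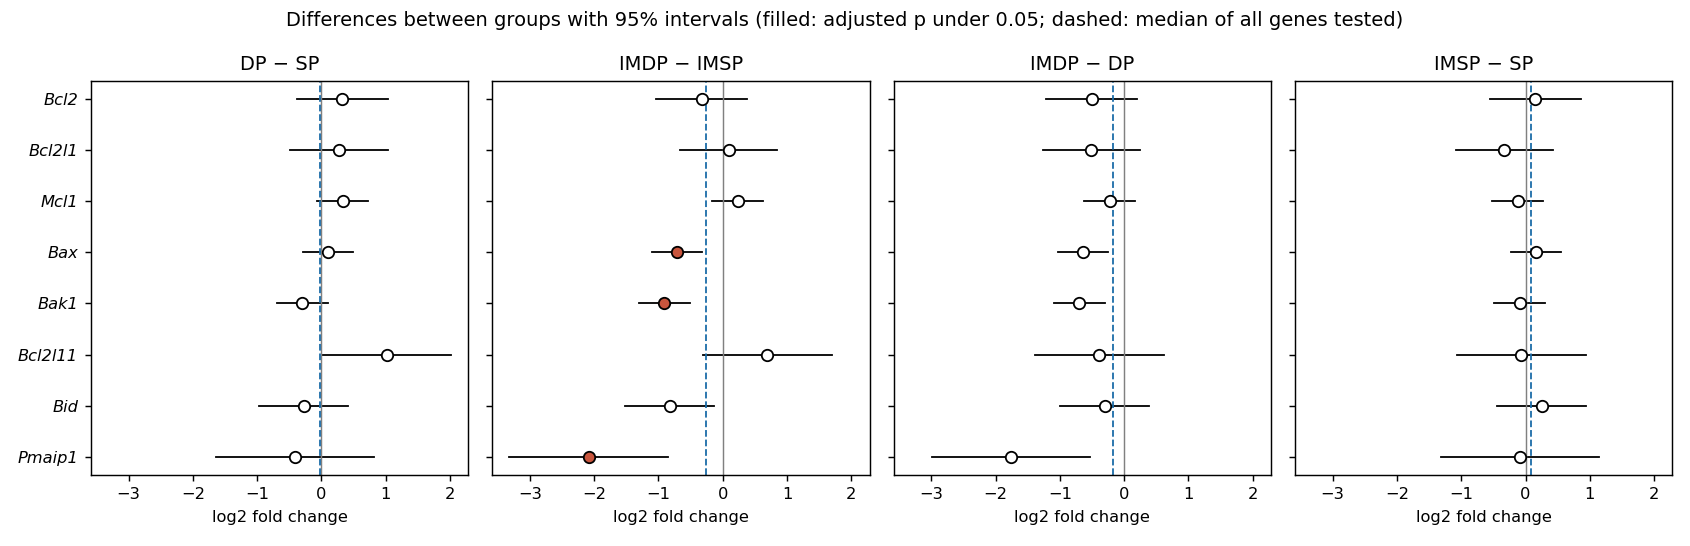
Log2 fold change (x axis, on log2(RPKM + 0.1)) of the 8 members past the low-value minimum in the 4 contrasts between groups, with 95% intervals (lines). Filled points passed an adjusted p of 0.05 and the dashed line marks the median of all tested genes, which lies at -0.25 in IMDP against IMSP cells, where Bax, Bak1 and Pmaip1 are filled.

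Libraries with neighbouring library numbers deviated together, and each such pair holds 1 G0M+ and 1 G0M- library of the same treatment. In all 6 pairs Mcl1 was higher in the G0M+ member, by log2 differences of 0.02 to 0.55. Bcl2l11 was higher in all 6 pairs as well, by 0.19 to 1.48. Among all tested genes, 11.3% were higher in all 6 pairs. For Bak1 the G0M+ member was lower in all 6 pairs, with differences of -0.37 to -0.21 in the vehicle pairs and -1.06 to -0.74 in the imatinib pairs. Bid was lower in all 6 pairs too, with differences of -1.22 to -0.20, and 24.9% of all tested genes were lower in all 6. Pmaip1 was lower in 5 pairs and Bax in 4, and Bax was lower in all 3 imatinib pairs. Bcl2 was higher in 3 pairs and lower in 3. Bcl2l1 and Bbc3 were each higher in 5 pairs, and Bmf in 6, though on few reads.

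**Figure D4:**
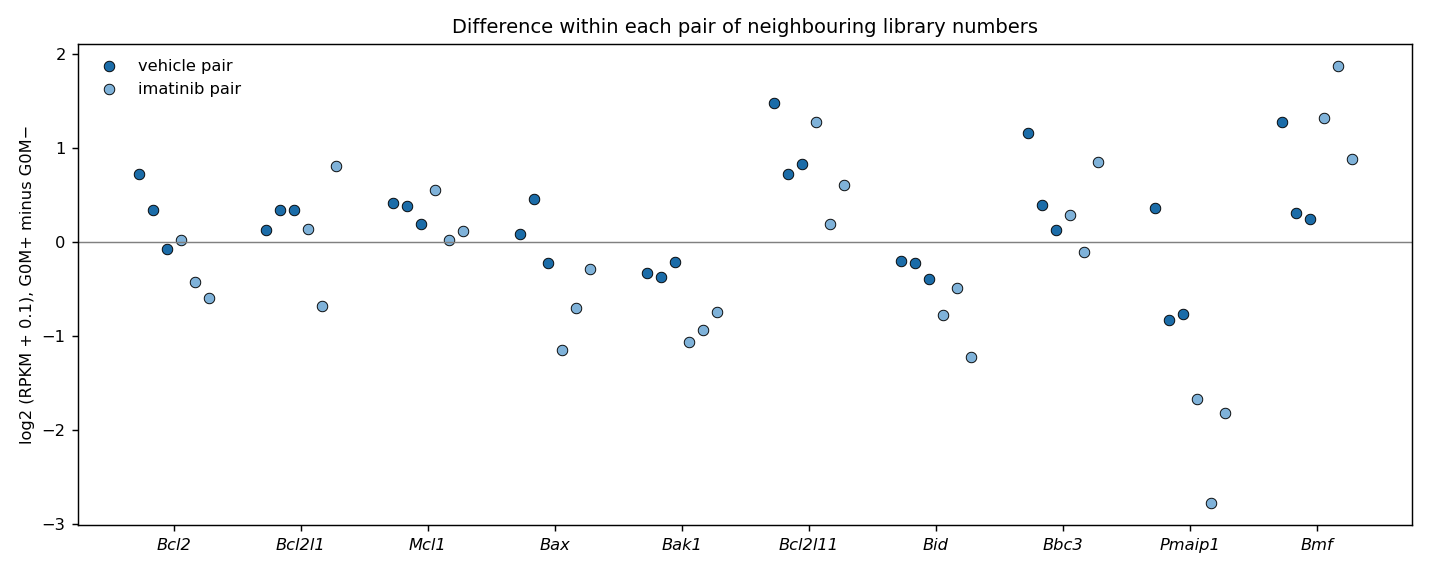
Difference in log2(RPKM + 0.1) between the G0M+ and the G0M- library (y axis) of each of the 6 pairs with neighbouring library numbers, for each member (x axis), with vehicle pairs in dark and imatinib pairs in light blue. All 6 points lie above 0 for Mcl1, Bcl2l11 and Bmf, and below 0 for Bak1 and Bid.

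The members' patterns over the 12 libraries were described by Pearson's r on log2(RPKM + 0.1), with no test, since the libraries share their groups and their total. Bak1 and Pmaip1 had an r of 0.847 with each other and of 0.825 and 0.721 with Mki67. Bax had an r of 0.729 with Bak1. Mcl1 and Bcl2l11 had an r of 0.702 with each other and of -0.501 and -0.563 with Mki67. Bcl2 and Bcl2l1 had an r of 0.124 and -0.119 with Mki67. The genes most like each member, with their r, were Rpn1 (0.985) and Ube2v1 (0.984) for Bak1, and Ift20 (0.922) and Rars (0.907) for Bax. For Mcl1 they were Arih1 (0.941) and Sik1 (0.921), for Bcl2 Slc7a6 (0.929) and Sema4d (0.882), and for Bcl2l1 Asap2 (0.929) and Kdm2a (0.923). For Bcl2l11 they were Ppp1r18 (0.871) and Lpcat2 (0.862), for Bid Larp1 (0.970) and Tbrg4 (0.963), and for Pmaip1 Thap11 (0.934) and Aurkaip1 (0.903).

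The genes on either side of the members in the pathway were read from 5 lists. Of 16 other BCL2 family genes, 8 were tested. In IMDP against IMSP cells 3 of them were called, all lower, where 25.6% of all genes were called and 23.3% were called lower. None was called in the other pairwise contrasts, nor averaged over treatments, where 26.3% of all genes were called. Bcl2l13, a mitochondrial outer membrane protein, fell from 6.21 ± 0.529 RPKM in IMSP to 4.22 ± 0.741 in IMDP libraries (adjusted p = 0.0233). Bad, a BH3-only gene whose product is held inactive by phosphorylation, was at 2.24 ± 0.0451 and 1.43 ± 0.196 RPKM (0.0278), and Bcl2l12 at 3.28 ± 0.813 and 1.91 ± 0.720 RPKM (0.0412). The call of Bcl2l12 was lost in 7 of the 12 fits that left out 1 library (adjusted p up to 0.171). None of the 3 kept an adjusted p under 0.05 with median scaling, where it was 0.111, 0.170 and 0.206. The list's median log2 fold change was 0.17, beside -0.25 over all genes.

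Of 15 genes of the apoptosome and the executioner caspases, 14 were tested and 7 were called in IMDP against IMSP cells, all lower, where 23.3% of all genes were called lower, with a list median of -0.49 against -0.25 over all genes. Cycs, cytochrome c itself, was at 9.08 ± 2.72 RPKM in IMDP and 21.8 ± 5.21 in IMSP libraries (log2 fold change -1.27, adjusted p = 0.0126). Vdac2, an outer membrane channel known to bind BAK1, was at 26.4 ± 5.14 and 46.4 ± 5.86 RPKM (-0.82, adjusted p = 0.0122), and Vdac1 at 18.2 ± 3.72 and 28.7 ± 4.56 RPKM (-0.66, adjusted p = 0.0239). Apaf1, the scaffold of the apoptosome, was at 5.48 ± 0.605 and 8.25 ± 1.25 RPKM (-0.58, adjusted p = 0.0200). Aifm1, a mitochondrial flavoprotein, differed by -0.84 (adjusted p = 0.0130) and Parp1, a DNA repair gene whose product caspases cleave, by -0.65 (adjusted p = 0.0126). With median scaling Vdac2, Cycs, Parp1 and Aifm1 kept an adjusted p under 0.05, and Apaf1 (0.124) and Vdac1 (0.0727) did not. With the reads on listed features as the denominator Cycs and Vdac2 kept it, and Parp1 (0.0571) and Aifm1 (0.0703) did not. Without IMSP library 1 the calls of Aifm1, Cycs, Parp1 and Vdac2 were lost, and without IMDP library 2 those of Cycs, Parp1 and Vdac2, with adjusted p up to 0.0640. Averaged over treatments 6 genes of the list were called lower and 1 higher, where 26.3% of all genes were called and 21% were called lower. The 1 called higher was Casp9, named here after its values were seen.

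Of 8 inhibitors of apoptosis and their antagonists, 7 were tested. Birc5 encodes survivin, which also serves chromosome segregation in mitosis. It was at 1.03 ± 1.17 RPKM in DP and 5.76 ± 1.07 in SP libraries (log2 fold change -2.86, adjusted p = 0.0175), and at 0.466 ± 0.249 in IMDP and 7.24 ± 1.93 in IMSP libraries (-3.75, adjusted p = 0.00117). The first of these calls was lost in 4 of the 12 fits that left out 1 library, namely DP library 2 or 3 or SP library 1 or 2, with adjusted p up to 0.0908. Htra2, a mitochondrial protease that counters these inhibitors, differed by -0.83 in IMDP against IMSP cells (adjusted p = 0.0180, or 0.0750 with median scaling). The other 5 genes tested were called in no pairwise contrast on the deposited RPKM of all 12 libraries without a block. With neighbouring libraries as a block, 44.1% of all genes were called in IMDP against IMSP cells. Among them were Birc6 (lower, adjusted p = 0.0388) and Birc3 (higher, 0.0489), both named after their values were seen. Birc6 was also called with limma-voom (0.0444).

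Of 12 death receptor genes, 10 were tested, with 1 called higher and 1 lower in IMDP against IMSP cells. In this contrast 25.6% of all genes were called and 23.3% were called lower. Tnfsf10, the ligand TRAIL, was at 8.28 ± 1.59 RPKM in IMDP and 4.85 ± 1.39 in IMSP libraries (log2 fold change 0.78, adjusted p = 0.0285), a call lost without IMDP library 1 or 2 or IMSP library 1 or 3 (adjusted p up to 0.0840). Tnfrsf1a, a receptor of TNF, was at 8.36 ± 1.06 and 13.5 ± 1.38 RPKM (-0.69, adjusted p = 0.0266, or 0.162 with median scaling). Tnf, named after its values were seen, was the only gene of the 5 lists called for treatment averaged over populations (-1.87, SE 0.38, adjusted p = 0.0464).

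Of 17 regulators of BCL2 family proteins and transcripts, 15 were tested, with 1 called higher and 2 lower in IMDP against IMSP cells. Pim2, a kinase known to phosphorylate BAD, was at 10.5 ± 1.62 RPKM in IMDP and 3.80 ± 0.758 in IMSP libraries (log2 fold change 1.45, adjusted p = 0.0259), a call lost without IMDP library 2 or 3 or IMSP library 1 or 3 (adjusted p up to 0.0795). Ywhae, a 14-3-3 gene, had means of 51.2 RPKM in IMDP and 77.9 in IMSP libraries (-0.64, adjusted p = 0.0287), and Ubqln1, a ubiquilin gene, differed by -0.48 (adjusted p = 0.0261). Neither of the 2 kept its call with median scaling (0.0909 and 0.228). Over the 5 lists 17 of the 54 genes tested were called in IMDP against IMSP cells, or 31.5% beside 25.6% of all genes. There were 2 without IMDP library 2, 2 without IMSP library 1 and 8 without IMDP library 3, while 20 were called without IMDP library 1. Of the 16 genes named for this contrast, 15 lost the call in at least 1 fit that left out a library, and Birc5 did not.

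**Figure D5:**
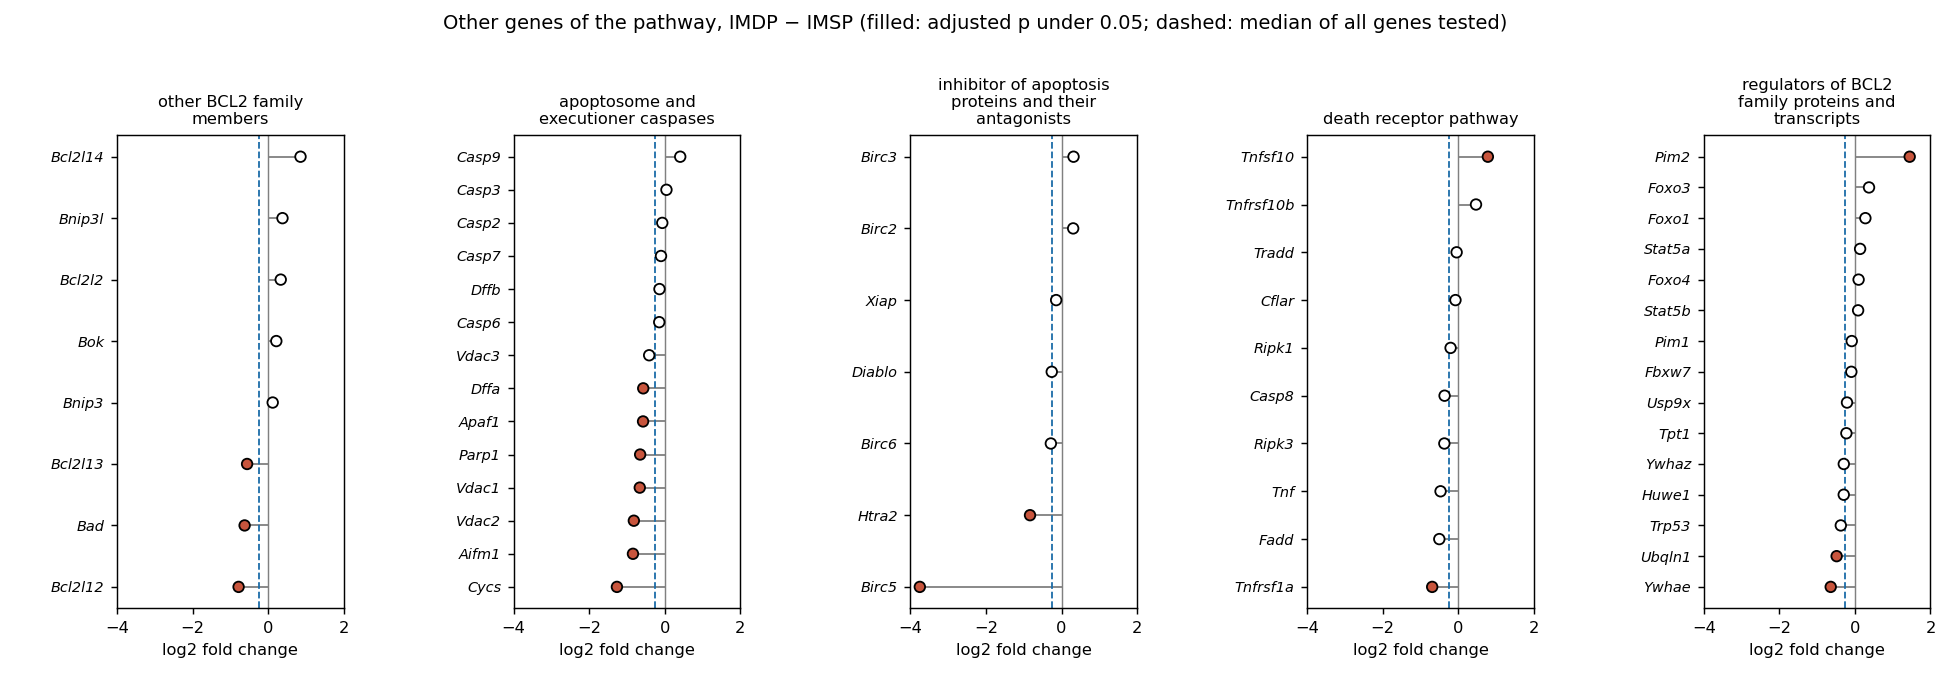
Log2 fold change (x axis, on log2(RPKM + 0.1)) in IMDP against IMSP cells of each tested gene (y axis) of the 5 lists, with filled points for an adjusted p under 0.05 and a dashed line at the median of all tested genes, -0.25. Birc5 lies farthest to the left at -3.75 and Pim2 farthest to the right at 1.45.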

How the data were processed

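RNA of 100 sorted cells per library was sequenced in 12 libraries. The deposited files hold RPKM, which the authors computed after mapping to GRCm38; the methods name CLC Genomics Workbench, the reporting summary HISAT2 and featureCounts, and the submitters' notes edgeR. Numbered copies of a gene were summed. Values lay on whole-read steps (all 17735 features above 0, tolerance 0.01), which gave 11.4 to 20.6 M reads per library.

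The limma test (version 3.58.1, R 4.3.3, variance trend) took genes that reached 1 RPKM in 3 or more libraries, on log2(RPKM + 0.1) with 4 group means and Benjamini-Hochberg adjustment over 10072 genes (threshold 0.05). Of genes at 0, the limit was 3 reads per library. The script was tested on simulated data.

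Replicate numbers paired IMDP with IMSP libraries (correlation of deviations from group means 0.429, 0.655 and 0.457) and did not pair DP with SP libraries (-0.298 to -0.098). Neighbouring library numbers in the sample descriptions paired both (0.429 to 0.655).

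The members and lists were chosen with earlier results of these data known. Named are all members, per list up to 6 genes called in a pairwise contrast, the 2 genes most correlated with each tested member, and label checks. The alternatives changed filter, pseudocount, scaling, block, denominator, fit or library; the denominator of reads on listed features and the ratio of pore formers to guardians were added after the data were seen.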

Additional observations from a re-analysis of the deposited data

How the results depend on the processing

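Of 1240 refits of the members' log2 fold changes, 1204 stayed on the same side of the threshold. In 22 a call was lost, in 14 one was gained, and 0 calls turned direction. Most refits were of results not called in the main fit, which called 3 members in IMDP against IMSP cells and 2 averaged over treatments. All 22 losses fell on these calls, so the 1204 do not measure how stable the calls are. Of the values of members and named genes, 44 that were never called changed sign. The 120 levels and 60 shares and ratios moved by less than 1 SD, but leaving out 1 of 3 libraries cannot move a mean by 1 SD. The shares from the highest numbered copy equalled the main shares. These refits therefore do not measure how stable the levels, shares and ratios are. Members called in IMDP against IMSP cells numbered 3, and 5 with the library-number block, 1 with median scaling and 1 with the reads on listed features as denominator. In DP against SP cells the library-number block called 1 instead of 0. Averaged over treatments the main count was 2, and 1 without filter, with a pseudocount of 1 and with limma-voom. It was 5 with the library-number block and 3 with the reads on listed features as denominator. When 1 library was left out it was 1 to 2 (1 without DP 2 or 3, IMDP 1 or SP 1 or 2). The replicate block called 2 members there, Bak1 and Bcl2l11, losing Pmaip1 (adjusted p = 0.0526), and 3 between IMDP and IMSP cells, and changed no other call of a member. The other genes of the pathway called in IMDP against IMSP cells numbered 17, and 25 with the library-number block. They numbered 7 with only the groups compared, 9 with median scaling and 7 with the reads on listed features as denominator. When 1 library was left out they numbered 2 to 20. In DP against SP cells they numbered 1, with 0 when only the groups compared were fitted, 7 with the library-number block and 0 to 2 when 1 library was left out (0 without DP 2 or 3 or SP 1 or 2, and 2 without IMSP 3). In IMDP against DP cells 0 were called, 1 with numbered copies kept apart and 0 to 2 when 1 library was left out (2 without IMDP 1, 1 without SP 2). Averaged over treatments they numbered 16, with 26 under the library-number block and 10 to 18 when 1 library was left out (10 without DP 3 or IMSP 1). The cause of these shifts was not tested. Depth limits Bbc3 and Bmf, which held at most 63 and 31 reads.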
